A study of Mus musculus with 514 samples.

Results

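Mouse 8-cell embryos that lacked both Nr5a2 and Esrrb (mz_DKO) were compared with 8-cell embryos labelled as lacking Nr5a2 alone (mz_NrKO), which asks what loss of Esrrb adds where Nr5a2 is absent. The members are the 10 full-length mz_DKO libraries at the 8-cell stage and 9 of the 10 mz_NrKO libraries, 19 of the 514 samples of the series. Replicate 1 of mz_NrKO was left out by rule. Each library came from the polyadenylated RNA of a single embryo, made with a protocol derived from FLASH-seq in which genotyping primers were added to the cDNA amplification, and embryos were handled ex vivo. The prefix mz names a maternal and zygotic knockout. Single Esrrb knockouts (mz_EKO, 10 embryos) and double heterozygotes (mz_DHet, 21 embryos), heterozygous for the deletion of each gene per the file headers, entered the same fit. The labels give no Esrrb status for mz_NrKO and no Nr5a2 status for mz_EKO, and mothers and litters are not recorded in them. The p-values thus reflect the spread among embryos of unstated parentage.

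Nr5a2 and Esrrb are orphan nuclear receptors, which bind DNA as single proteins at closely similar sites. Esrrb is known for its place in the pluripotency network of mouse embryonic stem cells and in trophoblast stem cells. Nr5a2 is known from liver and gonad as a regulator of bile acid, cholesterol and steroid genes, and from stem cells as an activator of Pou5f1. At the 8-cell stage mouse embryos compact, become polarised and begin to separate the trophectoderm from the inner cell mass.

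The 8-cell mz_DKO embryos stood close to the mz_NrKO embryos. Of 11044 genes tested, 8 (0.0724%) passed a Benjamini-Hochberg adjusted p under 0.05 in limma, 1 higher (0.00905%) and 7 lower (0.0634%) in mz_DKO. At an unadjusted p under 0.05, 879 genes differed, 546 higher and 333 lower. In the same fit 3729 genes (33.8%) were called in mz_DKO against mz_DHet, 2101 higher (19%) and 1628 lower (14.7%). In mz_NrKO against mz_DHet 3585 were called (32.5%), 1825 higher (16.5%) and 1760 lower (15.9%). The median size of a log2 fold change was 0.24 between mz_DKO and mz_NrKO, against 0.43 for each of these mutants set against mz_DHet, which both contrasts share. The 95% interval of the mz_DKO minus mz_NrKO difference stayed within 2-fold either way for 6086 genes (55.1%) and within 1.5-fold for 1986 (18%), and it reached past 4-fold for 724 genes (6.56%). Leaving out 1 library moved the count of 8 by over 1.5 times: it became 5, 17, 5, 28, 22 and 2 without mz_NrKO replicates 2, 3, 4, 6, 7 and 8, and 5, 3, 2 and 3 without mz_DKO replicates 2, 3, 7 and 9. The 22 calls without mz_NrKO replicate 7 are 0.195% of the genes tested there. With replicate 1 of mz_NrKO kept in, 16 of 10876 genes were called (0.147%). With mz_DKO and mz_NrKO alone in the fit, limma called 0 of 9131 genes (449 at an unadjusted p under 0.05), with a smallest adjusted p of 0.148. Of the 8 genes, 7 were tested there. The other, Slc25a41, had the smallest adjusted p in the full fit, but too few libraries of these groups held 5 TPM of it for a test.

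Collection date and read depth bound these comparisons. The mz_DKO embryos were collected on 23 February 2022 (1) and 8 March (9), the mz_NrKO embryos on 8 March (6) and 15 July (3), so the groups share 1 date, and date entered the fit as a factor. The effect of 15 July, which adjusts 3 of the 9 mz_NrKO embryos, rests on those and on 4 mz_DHet embryos. No mz_EKO or mz_DKO embryo was collected that day. The fit gives every group the same date effect, which the values did not always share. From 8 March to 15 July, Aacs means went from 96.6 to 27.6 TPM in mz_DHet and from 40.7 to 39.2 TPM in mz_NrKO. Ugcg means fell in both groups, from 89.0 to 37.8 TPM and from 73.9 to 18.1 TPM. Fits on 8 March alone, given below, hold no date effect. Values are transcripts per 1000000 (TPM), which keep no read counts, so depth is unknown. As a stand-in, 12536 to 14039 genes per mz_DKO library (median 13113) and 11268 to 13778 per mz_NrKO library (median 13062) exceeded 1 TPM. The lowest of these, mz_NrKO replicate 7, also stood apart in Esrrb, and results that rest on it are given without it. Pou5f1, which marks cleavage embryos, had a median of 1388 TPM in mz_DKO and 1204 TPM in mz_NrKO, and Cdh1 one of 76.2 and 58.6 TPM in the same order. Summed markers of cumulus and granulosa cells ranged over 14.1 to 37.9 TPM in mz_DKO and 4.86 to 43.8 TPM in mz_NrKO, with Fshr, Has2, Ptx3 and Cyp19a1 at 0 in every library of both. Summed blood markers ranged over 2.05 to 38.6 TPM in mz_DKO and 3.69 to 157 TPM in mz_NrKO, with 6 of 11 and 2 of 11 genes at 0 in every library. Sperm markers summed to at most 2.18 TPM. The low-value filter left 3 of 12 cumulus, 2 of 11 blood and 0 of 8 sperm markers to test, and none of these 5 was called. Oviduct markers summed to 44.3 to 331 TPM in mz_DKO and 34.4 to 223 TPM in mz_NrKO, of which the 1 gene tested, Epcam, is also an embryo gene. In whole embryos, fewer cells of a type and less RNA per cell cannot be told apart.

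Esrrb transcripts were lower in every mz_DKO embryo than the mz_NrKO median. Esrrb (mm10 chromosome 12, 86361117 to 86521628) stood at 4.98 to 42.6 TPM in mz_DKO embryos (median 26.6) and at 12.0 to 106.96 TPM in mz_NrKO embryos (median 65.8). The mz_NrKO value of 12.0 is replicate 7, and the other 8 lay between 46.6 and 106.96 TPM, above all 10 mz_DKO embryos. The log2 fold change was -1.20 ± 0.29 (SE; limma, adjusted p = 0.0690), and -1.55 ± 0.24 without mz_NrKO replicate 7 (adjusted p = 0.000220). Deposited values give 1 number per gene, so the deleted exons could not be looked at separately. In reads that carry a unique molecular identifier (UMI), which come from transcript 5' ends, Esrrb lay at 1.83 to 4.78 TPM in 9 mz_DKO libraries and at 46.5 to 79.7 TPM in 4 mz_NrKO libraries, with a log2 fold change of -3.72 ± 0.33 (limma, adjusted p = 1.19e-09). The groups did not overlap there, and mz_EKO libraries (1.72 ± 0.618 TPM, SD, n = 9) lay below mz_DHet libraries (41.4 ± 14.1 TPM, n = 16). No UMI library was labelled mz_NrKO replicate 7. Nr5a2 (chromosome 1, 136842571 to 136960448), deleted in both groups, stood at 509 to 1050 TPM in mz_DKO embryos (median 790) and at 293 to 961 TPM in mz_NrKO embryos (median 684). Its log2 fold change between the mutants was 0.15 ± 0.20 (adjusted p = 0.919), smaller than the spread between embryos. Against mz_DHet (184 to 695 TPM, median 485) Nr5a2 transcripts rose in both mutants, by 0.63 in mz_DKO (adjusted p = 0.00195 in limma) and by 0.49 in mz_NrKO (adjusted p = 0.0228). In UMI reads Nr5a2 averaged 583 ± 133 TPM in mz_DKO and 576 ± 162 TPM in mz_NrKO, against 391 ± 68.9 TPM in mz_DHet (n = 9, 5 and 16). Values that cover the whole gene or its 5' end thus do not show the deletion of Nr5a2, and the Nr5a2 labels could not be checked from them.

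**Figure D1:**
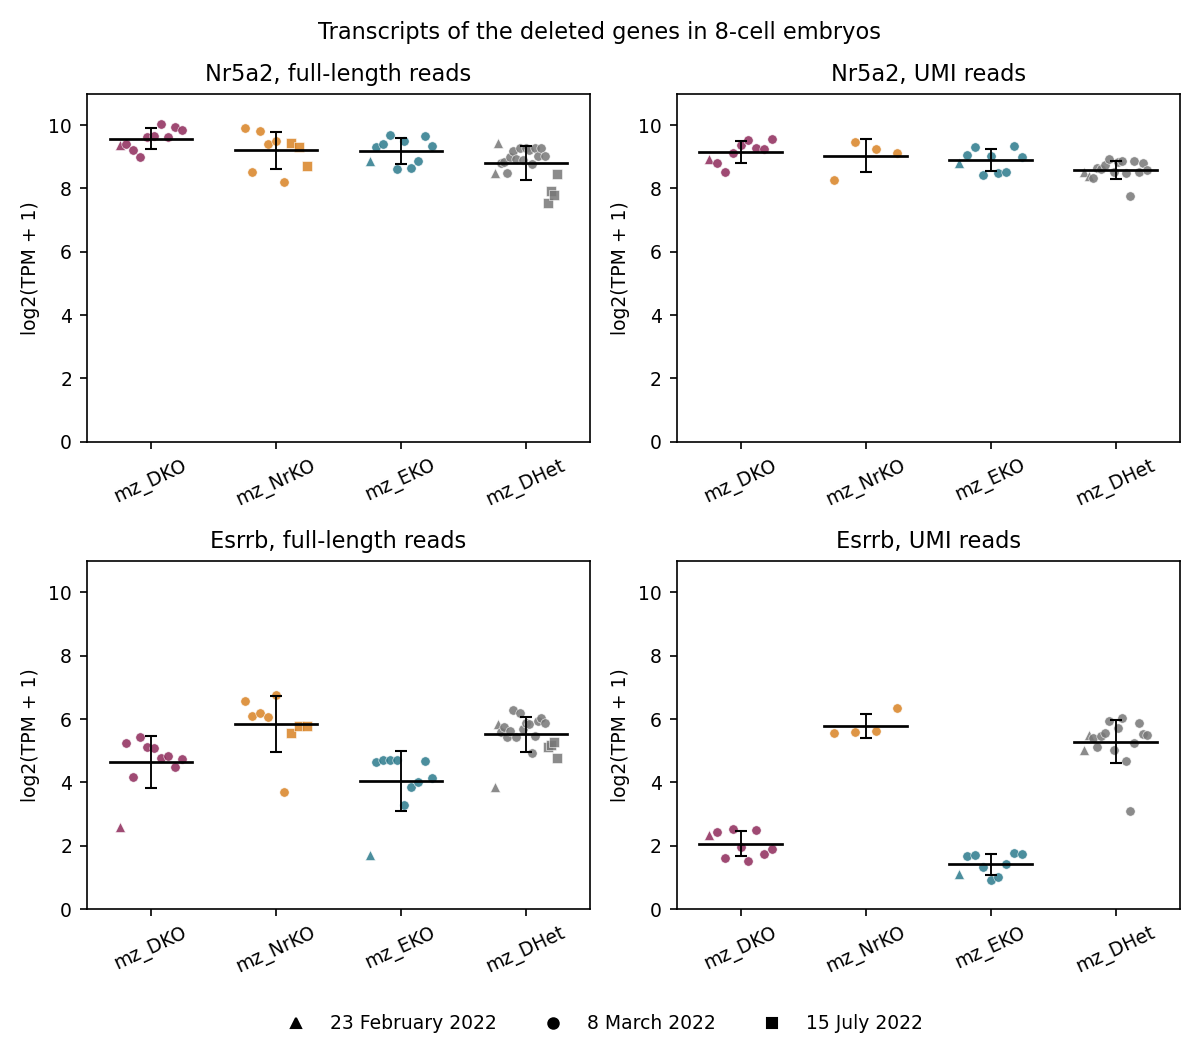
Levels of Nr5a2 and Esrrb as log2(TPM + 1) in each 8-cell library, in full-length and in UMI reads, for mz_DKO, mz_NrKO, mz_EKO and mz_DHet; each point is a library, its marker shape gives the collection date, and bars are mean ± SD. In UMI reads the mz_DKO libraries (1.83 to 4.78 TPM of Esrrb) all lie below the mz_NrKO libraries. In full-length reads mz_NrKO replicate 7 (12.0 TPM) falls among mz_DKO, an embryo with no UMI library by label or by best match.

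The UMI libraries carry a limit of their numbering. None of the 39 UMI libraries at the 8-cell stage correlated best, within its group, with the full-length library of the same replicate number (3898 genes, gene-centred log2 values), as a description over genes. All 9 mz_DKO and all 5 mz_NrKO UMI libraries correlated best with the full-length library numbered 1 higher (Pearson's r 0.575 to 0.791 in mz_DKO and 0.327 to 0.557 in mz_NrKO), and the presence of Y-linked transcripts matched this partner in 39 of 39 libraries, against 21 of 39 for the same number. The full-length mz_NrKO replicate 1 held 243 TPM of Cdx2, a trophectoderm gene at 0 to 6.79 TPM in the other mz_NrKO and at 0 to 5.48 TPM in the mz_DKO embryos, whereas the UMI library numbered 1 held 0 TPM of it. Each UMI library labelled 23 February correlated best with a full-length library labelled 8 March. Full-length values did differ by labelled date: the mz_DKO library of 23 February held 1712 TPM of Dppa5a, those of 8 March at most 620 TPM. From the labels alone, which table is misnumbered could not be told. By these matches UMI mz_NrKO replicate 1 is the partner of full-length replicate 2, a member here, and the UMI dates in the fit may be wrong. UMI fits were therefore run with the library labelled mz_NrKO replicate 1 left out and date in the fit. They were run again with all 5 mz_NrKO libraries and no date. Where 1 UMI log2 fold change is given for a gene, it is from the first fit. Full-length mz_NrKO replicate 7 and the mz_NrKO embryos of 15 July have no UMI library, by label or by best match. UMI and full-length values thus cover different sets of mz_NrKO embryos.

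The 2 genes with the smallest adjusted p encode a mitochondrial carrier and an enzyme of ketone body use, and both were lower in mz_DKO. Slc25a41 (chromosome 17, 57032773 to 57041654) encodes a carrier of the mitochondrial inner membrane that exchanges ATP-magnesium for phosphate. Its level was 0, 0.883, 9.66, 2.43, 0.942, 0, 0.835, 0, 0 and 0 TPM in mz_DKO replicates 1 to 10, and 16.3, 5.85, 2.51, 10.7, 31.9, 7.34, 8.64, 1.87 and 13.1 TPM in mz_NrKO replicates 2 to 10. It was listed at 0 in 5 of 10 mz_DKO embryos, and 9 of 10 lay below the mz_NrKO median, though replicates 3 and 4 lay within the mz_NrKO range. The log2 fold change was -2.49 ± 0.38 (95% interval -3.26 to -1.72; limma, adjusted p = 0.000324), on a log2(TPM + 1) scale that understates folds of genes near 1 TPM. It averaged 1.48 ± 2.98 TPM in mz_DKO and 10.9 ± 9.14 TPM in mz_NrKO (SD, n = 10 and 9), beside 35.0 ± 14.4 TPM in mz_EKO and 35.9 ± 14.2 TPM in mz_DHet (n = 10 and 21). Against mz_DHet it fell in mz_DKO (-4.37, adjusted p = 7.82e-16) and, by less, in mz_NrKO (-1.88, adjusted p = 7.07e-06). In UMI reads Slc25a41 was not called, at 0 to 9.37 TPM in mz_DKO and 0 to 23.1 TPM in mz_NrKO, ranges that overlapped. Its log2 fold change there was -1.05 (adjusted p = 0.831 in limma), and -1.40 with all 5 mz_NrKO libraries and no date (adjusted p = 0.654).

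Aacs (chromosome 5, 125475814 to 125517410) encodes acetoacetyl-CoA synthetase, which activates ketone bodies for lipid synthesis. It stood at 3.03, 16.03, 4.53, 15.3, 15.3, 16.7, 18.0, 18.6, 7.20 and 12.4 TPM in mz_DKO replicates 1 to 10, against 81.1, 45.5, 50.6, 32.8, 24.6, 9.56, 45.3, 33.1 and 39.1 TPM in mz_NrKO replicates 2 to 10. All 10 mz_DKO embryos lay below every mz_NrKO embryo except replicate 7. Its log2 fold change was -1.75 ± 0.31 (95% interval -2.37 to -1.13; limma, adjusted p = 0.00357), and -2.07 ± 0.28 without replicate 7 (adjusted p = 1.59e-05). Aacs averaged 81.8 ± 19.7 TPM in mz_EKO and 76.6 ± 42.5 TPM in mz_DHet over all dates. Among 8 March embryos the order was the other way, at 84.8 ± 18.3 and 96.6 ± 32.7 TPM (n = 9 and 15). On 8 March alone the log2 fold change of mz_DKO against mz_NrKO was -1.34 (adjusted p = 0.100). In UMI reads Aacs stood at 1.17 to 9.05 TPM in mz_DKO and at 4.63 to 19.1 TPM in 4 mz_NrKO libraries, with a log2 fold change of -1.13 (adjusted p = 0.766), and of -1.36 with all 5 mz_NrKO libraries and no date (adjusted p = 0.556). In full-length reads Slc25a41 and Aacs were called in all 19 fits that left out 1 of the compared libraries, with log2 fold changes of -2.77 to -2.24 and -2.07 to -1.61.

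Ggt1 (chromosome 10, 75561604 to 75586200) encodes gamma-glutamyltransferase, a cell-surface enzyme that breaks down extracellular glutathione. Its values were 3.97, 18.7, 11.0, 25.8, 5.22, 7.92, 10.6, 20.1, 5.34 and 15.3 TPM in mz_DKO replicates 1 to 10, against 75.4, 36.0, 39.1, 28.7, 60.7, 11.7, 54.9, 15.2 and 23.3 TPM in mz_NrKO replicates 2 to 10. The ranges overlapped through mz_NrKO replicates 7, 9 and 10. For Ggt1 the log2 fold change was -1.90 ± 0.40 (limma, adjusted p = 0.0315), called in 9 of the 19 fits without 1 library. Ggt1 averaged 38.3 ± 21.6 TPM in mz_NrKO, against 43.7 ± 31.9 TPM in mz_DHet, and this difference did not pass the test (log2 fold change 0.12, adjusted p = 0.824).

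The start regions of Ggt1 and Aacs are printed because Esrrb and Nr5a2 are both known to bind the letters AAGGTCA. Among the 6 called genes with a promoter sequence, Ggt1 is the 1 that holds them. The sequences span 250 bases before to 50 bases after a transcript start, on the strand of the gene, from RefSeq on GRCm38.p6, and capitals mark a match to AAGGTCA on the opposite strand (TGACCTT). The match in Ggt1 starts 27 bases after the start of 1 of its 4 promoters.
Ggt1, chr10:75563882-75564181, plus strand: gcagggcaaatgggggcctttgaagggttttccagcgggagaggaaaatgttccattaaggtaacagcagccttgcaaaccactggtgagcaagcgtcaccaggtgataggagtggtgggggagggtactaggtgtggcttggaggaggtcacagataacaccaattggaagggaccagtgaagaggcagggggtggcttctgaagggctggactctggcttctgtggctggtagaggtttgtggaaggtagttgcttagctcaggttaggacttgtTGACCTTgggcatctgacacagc
Aacs, chr5:125475623-125475922, plus strand: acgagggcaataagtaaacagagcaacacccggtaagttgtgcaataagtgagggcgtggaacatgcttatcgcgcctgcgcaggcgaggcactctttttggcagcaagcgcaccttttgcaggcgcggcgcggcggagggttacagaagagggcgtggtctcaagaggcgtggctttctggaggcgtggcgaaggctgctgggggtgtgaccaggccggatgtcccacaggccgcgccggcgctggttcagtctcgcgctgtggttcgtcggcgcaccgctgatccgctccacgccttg
The Aacs window holds no match. Of the 8 called genes, 6 were matched to a RefSeq promoter, and Slc25a41 and D5Ertd577e were not. A match is held by 1 of the 6 (16.7%), against 307 of 7830 tested genes (3.92%) and 1550 of 32851 promoters (4.72%). A gene with several promoters, as Ggt1, has more places for a match. A match is a description of the letters and shows no binding.

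The other called genes that fell include a pseudokinase and a ubiquitin ligase receptor. Strada (chromosome 11, 106163330 to 106202168), whose product activates the kinase LKB1, ranged from 8.76 to 45.4 TPM in mz_DKO (median 32.1) and from 14.9 to 72.6 TPM in mz_NrKO (median 46.0). The mz_NrKO embryos of 15 July held 14.9 to 27.3 TPM of Strada and those of 8 March 40.9 to 72.6 TPM, so the ranges overlapped by date, and the log2 fold change with date in the fit was -0.88 ± 0.18 (limma, adjusted p = 0.0263). Strada averaged 134 ± 36.6 TPM in mz_EKO and 105.9 ± 49.6 TPM in mz_DHet over all dates. Its means among 8 March embryos were 142 ± 27.5 and 135 ± 19.2 TPM (n = 9 and 15). Lrr1 (chromosome 12, 69168814 to 69179009), which recruits substrates to a CUL2 ubiquitin ligase, ranged from 214 to 601 TPM in mz_DKO (median 294) and from 408 to 750 TPM in mz_NrKO (median 483). Its log2 fold change was -0.83 ± 0.17 (adjusted p = 0.0283), and 7 of 10 mz_DKO embryos lay below the lowest mz_NrKO embryo. Lrr1 was the 1 gene of the 8 that was also called in UMI reads, in the fit with all 5 mz_NrKO libraries (-0.84, adjusted p = 0.0237), and it was -0.77 (adjusted p = 0.196) with date. Against mz_DHet, Lrr1 fell in mz_DKO (-0.39, adjusted p = 0.0260) and rose in mz_NrKO (0.44, adjusted p = 0.0145). On 8 March Lrr1 averaged 339 ± 60.2 TPM in mz_EKO and 411 ± 84.4 TPM in mz_DHet (SD, n = 9 and 15). UMI means of Lrr1 were 1774 ± 328 TPM in mz_EKO and 2123 ± 352 TPM in mz_DHet (n = 9 and 16).

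No role is given here for the last pair of called genes. BC028528 (chromosome 3, 95883954 to 95892005) averaged 19.6 ± 11.6 TPM in mz_DKO and 52.2 ± 22.2 TPM in mz_NrKO (log2 fold change -1.54 ± 0.31, adjusted p = 0.0283 in limma), against 45.4 and 42.7 TPM in mz_EKO and mz_DHet. Among 8 March embryos mz_EKO and mz_DHet averaged 45.3 and 47.3 TPM of BC028528. D5Ertd577e (chromosome 5, 95456806 to 95485587) averaged 63.7 ± 40.2 TPM in mz_DKO and 135 ± 51.8 TPM in mz_NrKO (-1.39 ± 0.29, adjusted p = 0.0294). It lies in a cluster of closely similar genes, and how reads were divided among them is not given in the sources used here, so its value is uncertain.

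Ugcg was the called gene that rose. Ugcg (chromosome 4, 59189257 to 59222833) encodes glucosylceramide synthase, the enzyme at the entry to glycosphingolipid synthesis. It held 105.8, 115, 139, 96.3, 106.5, 128, 123, 96.6, 122 and 87.8 TPM in mz_DKO replicates 1 to 10, against 77.1, 82.7, 77.3, 62.1, 81.3, 63.3, 19.7, 21.6 and 13.0 TPM in mz_NrKO replicates 2 to 10. It was the 1 called gene (0.00905% of those tested) whose ranges did not overlap. The 3 lowest mz_NrKO embryos, at 13.0 to 21.6 TPM, were those of 15 July, a date on which mz_DHet embryos also stood low (37.8 ± 5.95 TPM, n = 4) beside those of 8 March (89.0 ± 13.9 TPM, n = 15). With date in the fit the log2 fold change was 0.80 ± 0.17 (95% interval 0.45 to 1.15; adjusted p = 0.0438), and among 8 March embryos alone it was 0.59 (adjusted p = 0.104). In UMI reads it was 0.10 (adjusted p = 0.983), with means of 17.5 TPM in mz_DKO and 16.4 TPM in mz_NrKO.

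**Figure D2:**
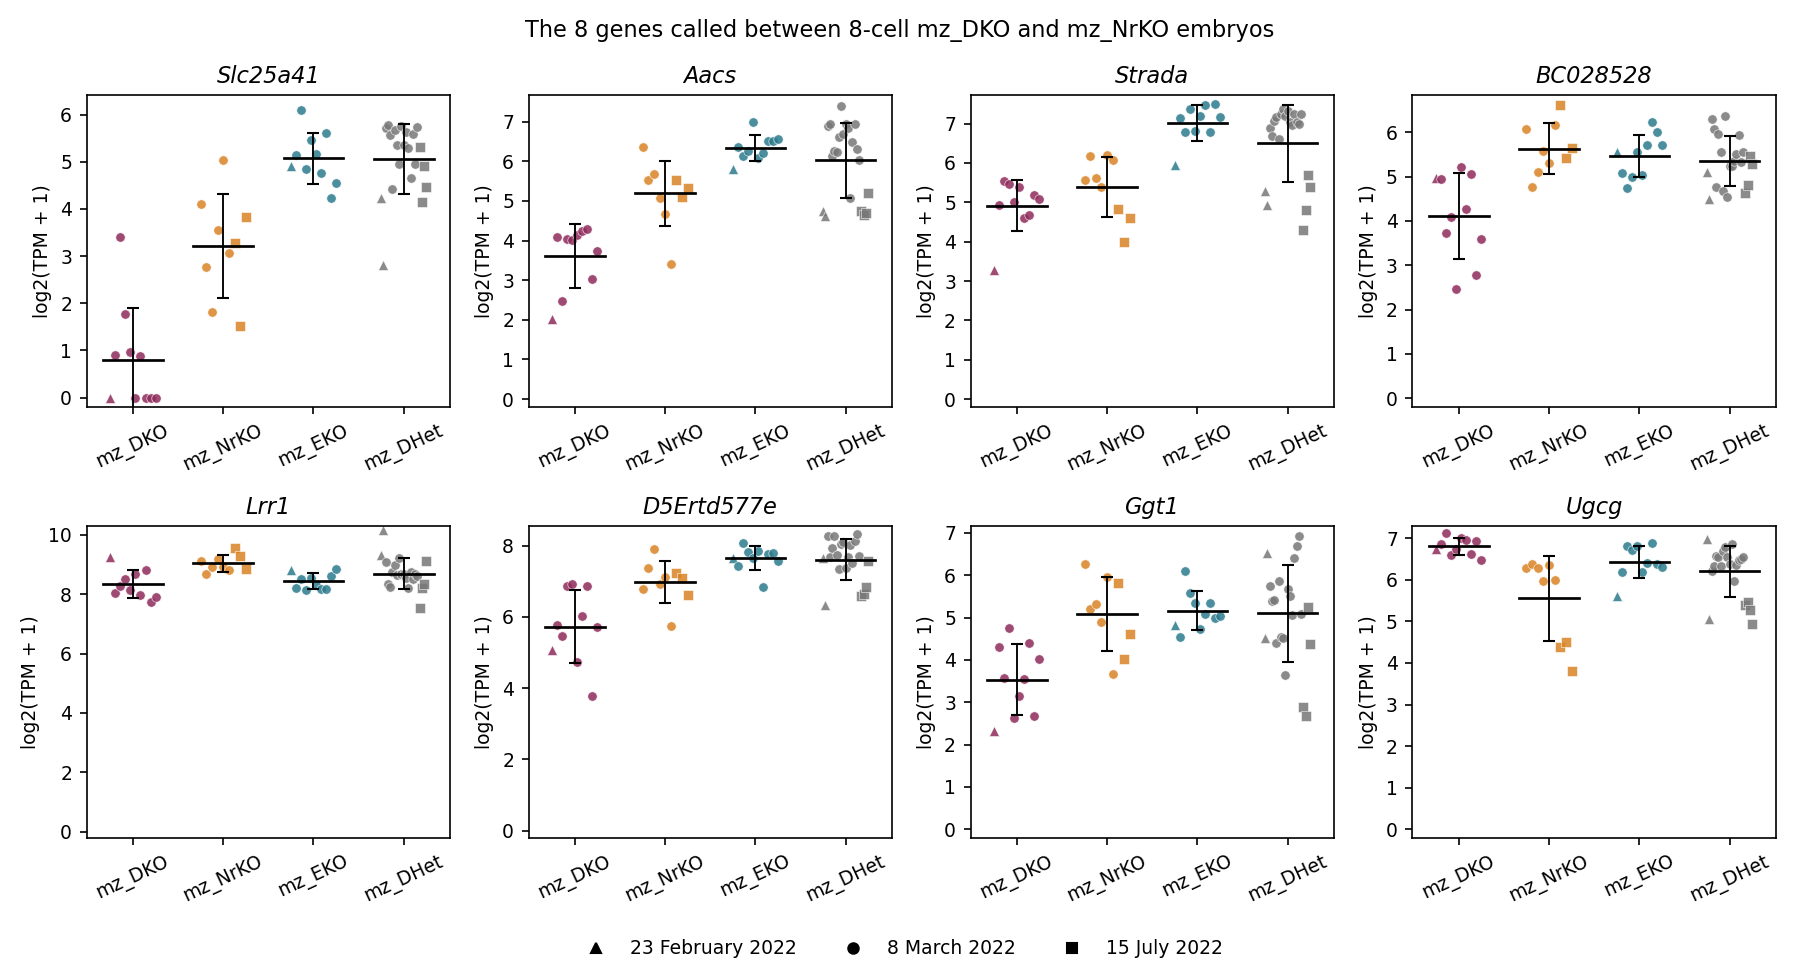
Levels of the 8 called genes as log2(TPM + 1) in every 8-cell full-length library of mz_DKO, mz_NrKO, mz_EKO and mz_DHet; points are libraries, marker shapes give the date, and bars are mean ± SD. All 7 genes called lower have their lowest mean in mz_DKO, with mz_EKO close to it for Lrr1. Ugcg has its lowest mean in mz_NrKO, where the 15 July embryos (13.0 to 21.6 TPM) sit below the rest.

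Genes just short of the threshold included Spp1 and Tead4. Spp1, which encodes the secreted phosphoprotein osteopontin, is outside the naming rule and was chosen after its values were seen. It stood at 83.5, 176, 219, 36.1, 95.3, 290, 125, 113, 29.9 and 72.1 TPM in mz_DKO replicates 1 to 10, against 48.5, 7.59, 9.62, 1.62, 9.40, 0, 56.3, 36.5 and 316 TPM in mz_NrKO replicates 2 to 10. Among 8 March embryos 5 of the 6 mz_NrKO values lay under the lowest mz_DKO value, while 1 of the 15 July mz_NrKO embryos had the highest value of all. The log2 fold change was 2.94 ± 0.65 (limma, adjusted p = 0.0501) over all dates, 3.87 ± 0.64 on 8 March (adjusted p = 0.00225) and 2.39 without mz_NrKO replicate 7 (adjusted p = 0.112). UMI reads gave 3.63 ± 0.62 (adjusted p = 0.00392), and 3.18 with all 5 mz_NrKO libraries and no date (adjusted p = 0.0147). The means of both mutants were above that of mz_DHet, where Spp1 averaged 3.35 ± 2.75 TPM, and mz_EKO embryos averaged 1.66 ± 2.01 TPM. Among 8 March embryos the mz_NrKO range (0 to 48.5 TPM) overlapped the mz_DHet range (0 to 8.45 TPM). Tead4, a DNA-binding partner of YAP needed for trophectoderm, averaged 31.0 ± 17.0 TPM in mz_DKO and 61.5 ± 33.2 TPM in mz_NrKO (-1.32 ± 0.30, adjusted p = 0.0522), and was called without mz_NrKO replicate 7 (-1.61, adjusted p = 0.00107). In UMI reads the log2 difference of Tead4 was -0.08 (adjusted p = 0.991), with means of 8.35 TPM in mz_DKO and 8.72 TPM in mz_NrKO.

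Within the single shared date, 4 of 11566 genes were called (0.0346%), 2 higher and 2 lower (0.0173% each). Slc25a41 (-2.51, adjusted p = 0.00225) was the 1 gene of the 8 among them. The others were Spp1, Tbc1d1, which encodes a Rab GTPase-activating protein (1.43, adjusted p = 0.0317), and Stmn3, a stathmin that binds tubulin (-1.21, adjusted p = 0.0341). All 8 genes kept their direction on that date. In UMI reads 3 of 9265 genes were called (0.0324%), Esrrb, Spp1 and the small nucleolar RNA gene Snord42a (-3.92, adjusted p = 0.00746), and none of the 8. With all 5 mz_NrKO UMI libraries and no date 4 of 8960 were called (0.0446%), Esrrb, Spp1, Lrr1 and Tmem191c (-1.33, adjusted p = 0.0399).

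No gene was called at the earlier stages. At the 4-cell stage limma called 0 of 13044 genes between 10 mz_DKO and 5 mz_NrKO embryos (0%; 385 at an unadjusted p under 0.05). At the late 2-cell stage it called 0 of 14147 between 6 and 10 embryos (0%; 1409 unadjusted). All groups of a stage entered its fit, at the late 2-cell stage also 7 embryos labelled z_NrHet and 6 labelled z_NrKO. Date was a factor, and the compared groups were unevenly spread over dates. At the 4-cell stage 1 mz_DKO and 3 mz_NrKO embryos were of 22 May, and 9 and 2 of 17 June. At the late 2-cell stage all 10 mz_NrKO and 4 mz_DKO embryos were of 8 March, and 2 mz_DKO embryos of 22 May. Slc25a41 had 4-cell medians of 1.06 TPM in mz_DKO and 4.03 TPM in mz_NrKO, against 29.2 TPM in mz_DHet. At the late 2-cell stage the order of the mutants was the other way, with Slc25a41 medians of 3.94 TPM in mz_DKO and 1.11 TPM in mz_NrKO, against 25.4 TPM in mz_DHet (0.96 ± 0.78 between the mutants, adjusted p = 0.667 in limma). Aacs had 4-cell medians of 10.9 TPM in mz_DKO, 15.4 TPM in mz_NrKO and 51.4 TPM in mz_DHet, and late 2-cell medians of 17.0 TPM in mz_DKO, 14.2 TPM in mz_NrKO and 31.9 TPM in mz_DHet. At the 8-cell stage the Aacs medians were 15.3 TPM in mz_DKO, 39.1 TPM in mz_NrKO and 75.3 TPM in mz_DHet. Ggt1 was listed at 0 in all 10 mz_DKO and in 3 of 5 mz_NrKO embryos at the 4-cell stage, and in 5 of 6 and 3 of 10 at the late 2-cell stage. Spp1 was listed at 0 in 7 of 10 mz_DKO and 5 of 5 mz_NrKO 4-cell embryos, and 1 mz_DKO embryo, replicate 3, held 575 TPM. At the late 2-cell stage Spp1 reached at most 2.14 TPM in mz_DKO and 11.2 TPM in mz_NrKO. Whether the differences change between stages was not tested.

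**Figure D3:**
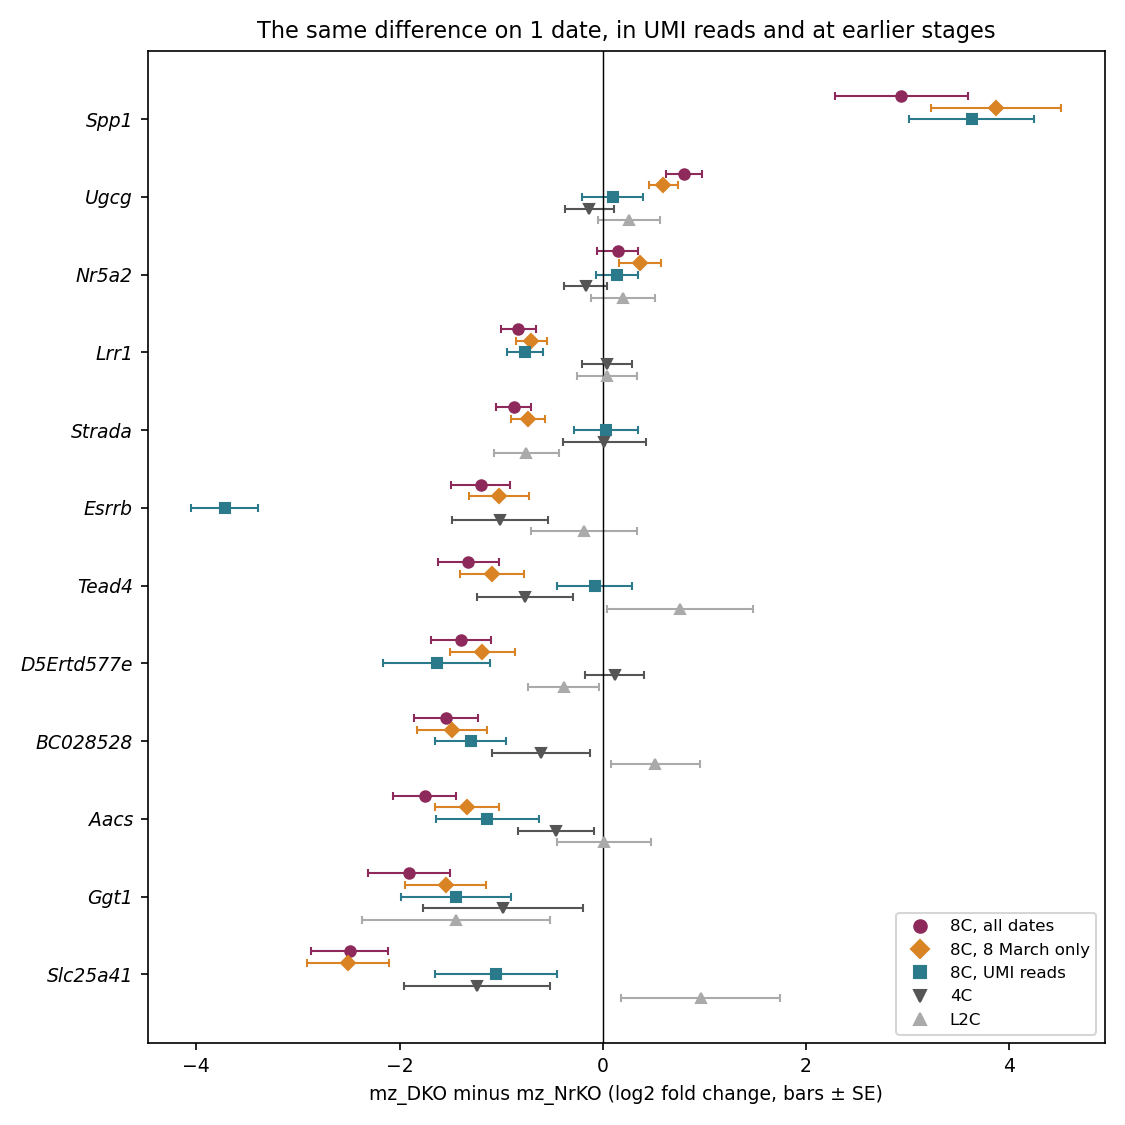
Log2 fold changes of mz_DKO minus mz_NrKO (± SE) for 12 genes at the 8-cell stage over all dates, on 8 March alone and in UMI reads, and in full-length reads at the 4-cell and late 2-cell stages, where Spp1 was not tested. Slc25a41 and Aacs are negative in all 3 sets of 8-cell values, though not called in UMI reads (-1.05 and -1.13), while Strada and Ugcg lie near 0 in UMI reads (0.031 and 0.10).

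Single Esrrb knockouts set against double heterozygotes gave 1 call. Between mz_EKO and mz_DHet 1 of 11044 genes was called (0.00905%; 285 at an unadjusted p under 0.05), Esrrb itself, at 18.0 ± 8.15 TPM in mz_EKO and 47.8 ± 15.5 TPM in mz_DHet (-1.57 ± 0.23, adjusted p = 0.000181 in limma). The median size of a log2 fold change was 0.15 in that contrast, with 10 and 21 embryos. Whether a gene's difference between mz_DKO and mz_NrKO departed from its difference between mz_EKO and mz_DHet was tested as an interaction, and 3 genes passed (0.0272%), all lower (607 at an unadjusted p under 0.05). They were Slc25a41 (-2.40 ± 0.47), Aacs (-1.90 ± 0.38) and Strada (-1.07 ± 0.22), each at adjusted p = 0.0381. Set beside those values, mz_EKO minus mz_DHet was -0.09 for Slc25a41, 0.14 for Aacs and 0.19 for Strada. Leaving out 1 library gave 0 to 8 interaction calls: 0 without mz_DKO replicates 2, 5, 6, 7, 8, 9 or 10 and without mz_NrKO replicates 2, 3, 8 or 10, and 8 (0.0711%) without mz_NrKO replicate 7. On 8 March alone 2 of 11566 genes were called in the interaction (0.0173%), and none of the 3 was among them: Slc25a41 was at -2.24 (adjusted p = 0.188), Aacs at -1.22 (adjusted p = 0.549) and Strada at -0.80 (adjusted p = 0.365). The 2 were Spp1 (4.67 ± 0.82, adjusted p = 0.0139) and Igf2r, which encodes a receptor that takes IGF2 to lysosomes (-1.23 ± 0.24, adjusted p = 0.0484). In UMI reads Spp1 was the 1 interaction call of 9265 genes (0.0108%; 4.14 ± 0.75, adjusted p = 0.0245), and over all dates its interaction was 3.47 (adjusted p = 0.154). Esrrb itself had no interaction call (0.37 ± 0.36, adjusted p = 0.983).

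**Figure D4:**
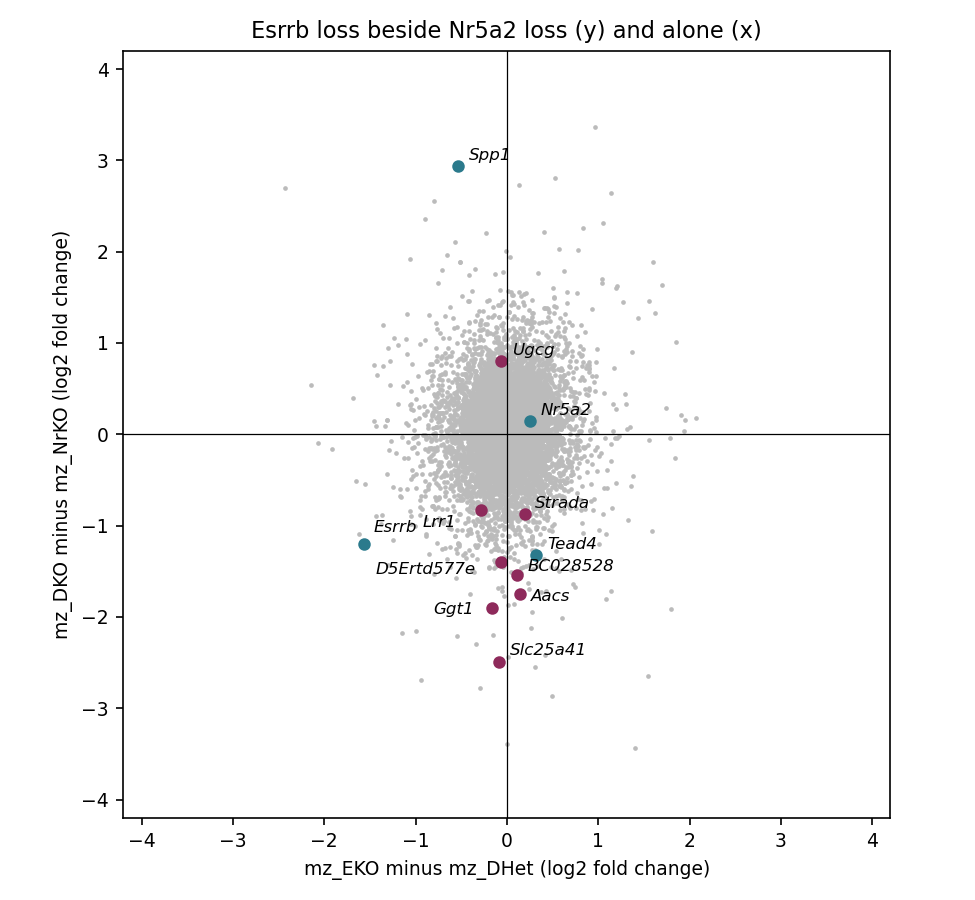
For each of the 11044 genes, the log2 fold change of mz_DKO minus mz_NrKO (vertical) against mz_EKO minus mz_DHet (horizontal), with no embryo shared by the contrasts; the 8 called genes are purple, and Esrrb, Nr5a2, Tead4 and Spp1 are blue. Esrrb is low on both axes (-1.20 and -1.57), while Slc25a41, Aacs and Strada are low on the vertical axis and near 0 on the horizontal one.

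Among the lists of lipid metabolism, 1 gene was called. Over all 11044 genes tested the median log2 fold change was 0.06, and 6268 were positive. Of 18 tested sphingolipid genes 1 rose (Ugcg) and none fell, against 0.00905% higher and 0.0634% lower over all genes tested. The list's median was 0.33, and 5 of its genes were higher and 1 lower at an unadjusted p under 0.05, where 546 and 333 of all 11044 genes stood. Smpd1, the acid sphingomyelinase, averaged 472 TPM in mz_DKO and 267 TPM in mz_NrKO (0.88, adjusted p = 0.210), and Cers2, a ceramide synthase, 48.1 and 29.3 TPM in the same order (0.72, adjusted p = 0.303). The sphingosine-1-phosphate receptor S1pr2 had the opposite sign (-1.43, adjusted p = 0.233), at 0.177 TPM in mz_DKO and 2.45 TPM in mz_NrKO. Of 23 tested genes of cholesterol and steroid metabolism none was called, and the median was 0.16, with 6 higher and 0 lower at that unadjusted p. Soat1, which esterifies cholesterol for storage, averaged 115 ± 70.1 TPM in mz_DKO and 43.5 ± 25.6 TPM in mz_NrKO (1.24, adjusted p = 0.133). Sqle, squalene epoxidase, averaged 122 ± 44.9 TPM in mz_DKO and 63.0 ± 45.0 TPM in mz_NrKO (1.04, adjusted p = 0.334).

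Stress, pluripotency and lineage genes gave no call. Of 32 tested genes of the unfolded protein and integrated stress responses 28 were positive, with a median of 0.32. Slc3a2, the heavy chain of amino acid transporters, averaged 477 ± 195 TPM in mz_DKO and 263 ± 118 TPM in mz_NrKO (0.68, adjusted p = 0.283), and Chac1, a glutathione-degrading enzyme of the stress response, 46.5 ± 50.0 and 15.3 ± 16.4 TPM in the same order (1.76, adjusted p = 0.530). Of 25 pluripotency and inner cell mass genes, none was called and the median was 0.28. Dppa4, a chromatin protein of pluripotent cells, averaged 854 ± 153 TPM in mz_DKO and 666 ± 208 TPM in mz_NrKO, and Lin28a, an RNA-binding protein of stem cells, 386 ± 201 and 205 ± 150 TPM. The 22 tested members of the Esrrb network of stem cells had a median of 0.14, and of 22 nuclear receptors, Esrrb among them, none was called. The 22 trophectoderm genes had a median of -0.02 between the mutants, with medians of -1.59 in mz_DKO and -1.26 in mz_NrKO against mz_DHet. Krt18, a keratin of the trophectoderm, ranged from 10.4 to 535 TPM in mz_DKO and from 40.9 to 786 TPM in mz_NrKO. Wwtr1, which encodes the Hippo pathway coactivator TAZ, averaged 228 ± 50.9 TPM in mz_DKO and 154 ± 44.3 TPM in mz_NrKO, against 37.7 ± 15.7 TPM in mz_DHet (0.50 between the mutants, adjusted p = 0.517).

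Genes of housekeeping pathways gave no call. All 37 tested ribosome biogenesis genes and 44 of 47 genes of oxidative phosphorylation had intervals within 2-fold either way, with medians of 0.04 and 0.00. The medians were 0.03 for 42 DNA replication genes, 0.00 for 35 DNA repair genes, 0.09 for 32 p53 targets and apoptosis genes and 0.04 for 24 genes of glycolysis and pyruvate use. Of 47 genes of mitosis and the spindle 37 were positive (median 0.15), but the median was 0.34 on 8 March alone and -0.07 without mz_NrKO replicate 7. Without that embryo the median over all genes tested was -0.04, and those of the ribosome biogenesis, DNA replication and p53 lists were -0.14, -0.09 and -0.09, while those of the sphingolipid and stress response lists were lower than with it, at 0.20 and 0.21. The primitive endoderm list (13 genes), the polarity, adhesion and Hippo list (43) and the maternal list (7) had medians of -0.05, 0.08 and 0.03. On 8 March alone the medians of the primitive endoderm and trophectoderm lists were 0.32 and 0.20, and that of all genes was 0.09. The 15 tested genes of the 2-cell burst, normally silenced after the 2-cell stage, had a median of 0.07 between the mutants, with medians of 2.62 in mz_DKO and 1.89 in mz_NrKO against mz_DHet.

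**Figure D5:**
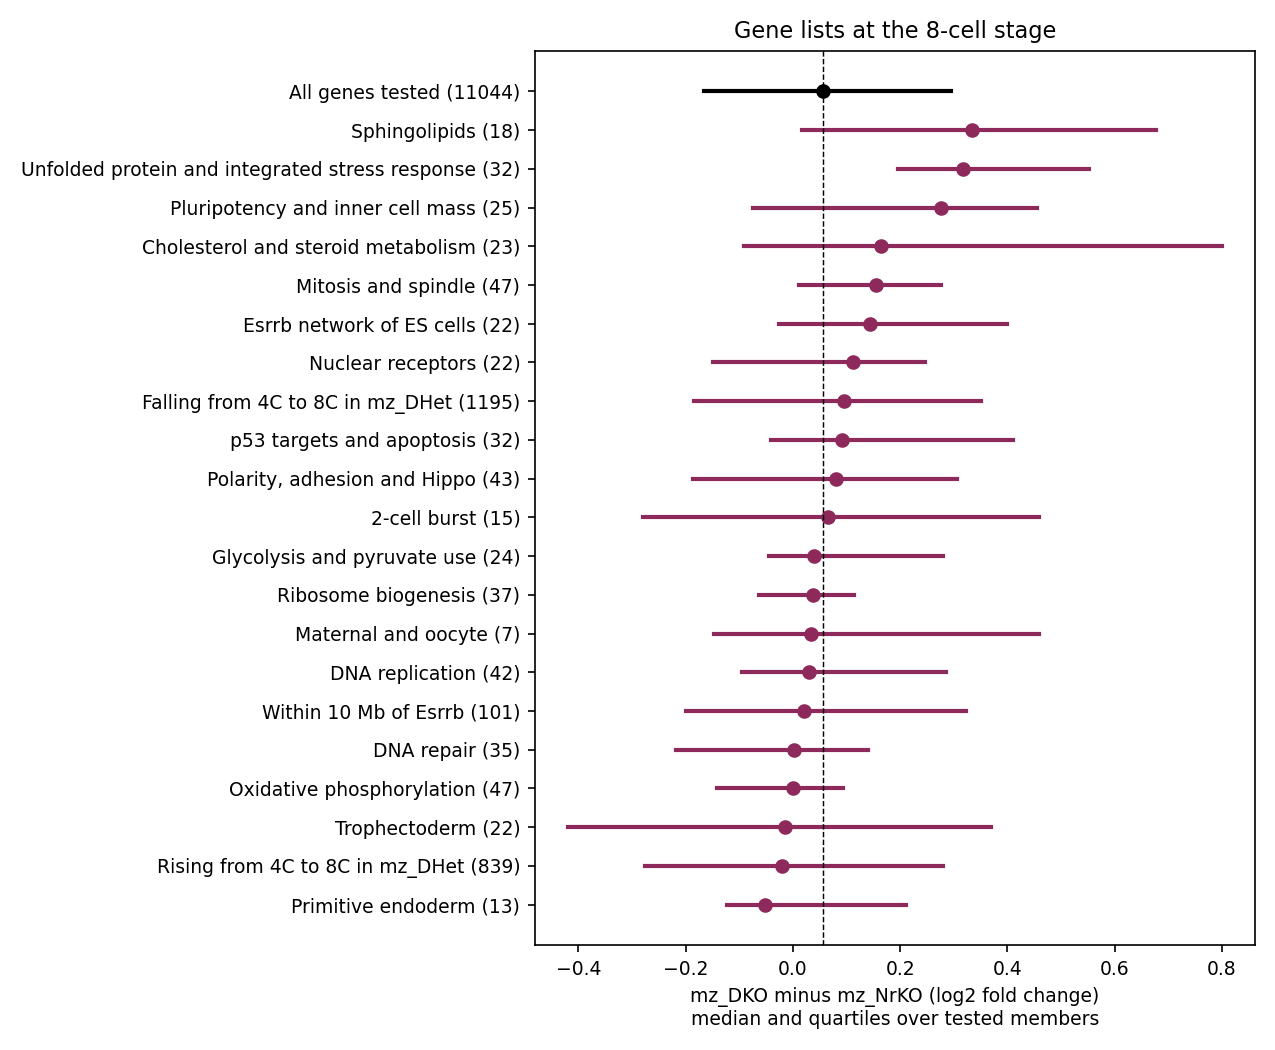
Median and quartiles of the log2 fold change of mz_DKO minus mz_NrKO over the tested members of each gene list with at least 7 tested genes, with all 11044 genes on top. Sphingolipid (0.33) and stress response (0.32) lists have the highest medians and primitive endoderm (-0.05) the lowest of the lists named here, an order that does not hold on 8 March alone, when primitive endoderm was at 0.32.

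Genes that turn on or off in control development had similar medians in both mutants. The 839 genes at least 4-fold higher in 8-cell than in 4-cell mz_DHet embryos had a median of -0.02 between mz_DKO and mz_NrKO. Of these 839 genes 0 were called higher and 2 lower, beside 1 (0.00905%) and 7 (0.0634%) of all 11044 genes tested. Their medians against mz_DHet were -0.53 in both mutants. Of the 1622 genes at least 4-fold lower at the 8-cell stage 1195 were tested, with no call and a median of 0.10, and their medians against mz_DHet were 0.63 in mz_DKO and 0.58 in mz_NrKO. Both lists rest on mz_DHet embryos of different collection dates, so stage and date cannot be told apart in them. Genes beside the deleted locus were looked at as a list of their own. Of 445 annotated genes within 10 Mb of Esrrb, 54 of those tested were positive and 47 negative, none was called, and the median was 0.02. The called gene Lrr1 is on the same chromosome as Esrrb, outside this window. Whether its difference goes with DNA linked to Esrrb was not tested.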

How the data were processed

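The authors deposited TPM per gene for each library, 1 matrix for full-length reads, with 55168 named genes and 65 unnamed entries that were left out, and 1 for UMI reads, with 55247 genes. The submitters' processing notes name cutadapt, STAR, RSEM, DESeq2 and the build mm10 without versions. From these TPM, values were transformed to log2(TPM + 1), and a gene was tested when 9 or more libraries held 5 TPM or more, with limma 3.58.1 (limma-trend, R 4.3.3 and the data.table package in version 1.17.8). All 50 full-length 8-cell libraries entered one fit with group and collection date as factors (44 residual degrees of freedom). Tests were two-sided, called at a Benjamini-Hochberg adjusted p under 0.05, and intervals are 95% from the moderated standard errors. TPM are given as mean ± SD, and log2 fold changes ± SE.

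The text names Nr5a2 and Esrrb, every gene called in mz_DKO against mz_NrKO or in the interaction (all were under the limit of the 10 largest in a direction), and up to 4 members per list with the smallest adjusted p. The members, the lists and this rule were chosen with earlier results of these data known. Genes called in an alternative alone, such as Igf2r, were named after their values were seen. The fit was run on simulated data with independent noise and no date effects. That run does not bear on the effects of date or of single libraries. No 2 libraries of the 8-cell stage were identical. Earlier stages were fitted with their own groups and dates.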

Additional observations from a re-analysis of the deposited data

Results flagged for a closer look

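A single embryo stood far from the rest of its group, by the gap to its nearest neighbour as a share of the group's range, in 5 of 26 group values examined on named genes and library measures. Such a gap arises by chance in about 1 of 20 groups. Esrrb was at 4.98 TPM in mz_DKO replicate 1, against 17.0 to 42.6 TPM in the other mz_DKO embryos, and at 12 TPM in mz_NrKO replicate 7, against 46.6 to 106.96 TPM. That mz_NrKO embryo also had 11268 genes above 1 TPM, against 12749 to 13778 in the others. Slc25a41 was at 9.66 TPM in mz_DKO replicate 3, against 0 to 2.43 TPM in the others. Strada was at 8.76 TPM in mz_DKO replicate 1, the 1 mz_DKO embryo of 23 February, against 23.3 to 45.4 TPM.

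The difference between mz_DKO and mz_NrKO departed from that between mz_EKO and mz_DHet for Slc25a41 by -2.4, for Aacs by -1.9 and for Strada by -1.07 on the log2 scale (interaction term in limma, adjusted p = 0.0381 each). None of these 3 was called in the interaction on 8 March alone or in UMI reads. Below the mz_NrKO median lay 9 of 10 mz_DKO embryos for Slc25a41 and 10 of 10 for Aacs. These counts describe genes called in the same values. They hold no mz_EKO or mz_DHet embryo and do not bear on the interaction.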

How the results depend on the processing

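Depth is unknown, few embryos and 1 shared date limit the comparison, and the number of calls moved with most choices. Of the 8 genes, the 1 that was higher became 4 with mz_NrKO replicate 1 included, 2 on 8 March alone, 2 without a date factor, 3 without the filter, 0 with median-of-ratios scaling, 0 with mz_DKO and mz_NrKO alone in the fit (449 of 9131 genes at an unadjusted p under 0.05) and, chosen after seeing the data, 4 on 8 March without mz_NrKO replicate 7. In the same order the 7 that were lower became 12, 2, 4, 4, 11, 0 and 18, and in UMI reads 2 (3 with every mz_NrKO library and no date factor, also chosen after seeing the data). The genes shared with the 8 numbered 7, 1, 2, 3, 7, 0 and 5. With mz_DKO and mz_NrKO alone in the fit, 7 of the 8 were tested, and Slc25a41 was not. A pseudocount of 0.1 left 8 of 8. Without a date factor the median of all genes was 0.23, against 0.06 with it. The 3 interaction calls became 2 on 8 March alone (0 of the 3 shared), 0 without a date factor, 0 without the filter, 1 in UMI reads (0 shared) and 0 in UMI reads with every mz_NrKO library. Without the filter mz_EKO against mz_DHet gave 2 calls and the late 2-cell stage 9. The UMI comparison gave 5 calls without date, 6 at pseudocount 0.1 and 55 without the filter. Esrrb, not called in the full-length fit, was called at -1.25 with median-of-ratios scaling, -3.72 in UMI reads, -3.76 in UMI reads with every mz_NrKO library and -1.46 on 8 March without mz_NrKO replicate 7. The log2 fold change of Strada turned to 0.031 in UMI reads (adjusted p = 0.993). The cause of these changes was not tested.

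Leaving out 1 library gave 0 to 15 genes higher, 2 to 20 lower, 0 to 8 interaction calls, 1 call in mz_EKO against mz_DHet, 0 to 1 call at the 4-cell stage (1 without mz_NrKO replicate 3) and 3 to 24 in UMI reads (24 without mz_NrKO replicate 5). Esrrb ranged from -1.55 to -1.09, Nr5a2 from -0.04 to 0.22, and the medians of genes rising, falling or near Esrrb from -0.06 to 0.04, from -0.09 to 0.15 and from -0.08 to 0.09. Of the 19 fits, Strada was called in 17 (not without mz_NrKO 8 or mz_DKO 7), BC028528 in 13, D5Ertd577e in 12, Lrr1 in 11, Ggt1 in 9 and Ugcg in 7, with a highest adjusted p of 0.0931.

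Replicate numbers are shared by 9 pairs, of which 3 had deviations correlated over 0.1 (-0.115 to 0.233), and 3 libraries of each group were closest to their own number, so the numbers name embryos and do not pair them. With a replicate block 1 gene was higher (Spp1, 4.00, adjusted p = 0.00502), 0 were lower and 1 interaction was called, and the log2 fold change of Slc25a41 was -2.31 (adjusted p = 0.0605).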

Other observations

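Other genes that were positive or negative between the mutants are given as values. Rxra, the shared partner of many nuclear receptors, averaged 77.2 ± 59.3 TPM in mz_DKO and 37.3 ± 43.2 TPM in mz_NrKO (1.34, adjusted p = 0.260 in limma). Pola1, the catalytic subunit of DNA polymerase alpha, averaged 17.0 ± 7.80 TPM in mz_DKO and 39.8 ± 17.3 TPM in mz_NrKO (-0.92, adjusted p = 0.303), and Mcm6, a subunit of the replicative helicase, 226 ± 38.0 and 141 ± 82.5 TPM in the same order (0.64, adjusted p = 0.379). Slc2a3, a glucose transporter, averaged 143 ± 74.7 TPM in mz_DKO and 74.6 ± 49.5 TPM in mz_NrKO (1.31, adjusted p = 0.347). None of these passed the threshold, and their ranges overlapped between the groups.

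Y-linked transcripts were present in 5 of 10 mz_DKO and 4 of 9 mz_NrKO embryos. Among 16 mz_DHet UMI libraries 11 correlated best with the full-length library numbered 2 higher and 4 with that numbered 1 higher, and all 9 mz_EKO libraries with that numbered 1 higher.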
